A study of Homo sapiens with 60 samples.

Results

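A set of 10 genes of polyamine metabolism was followed in 1321N1 cells, a human astrocyte-derived line from an astrocytoma, during exposure to arsenic, cadmium, or mercury. The 10 genes were chosen by name, as the rows of the count table called ODC1, AMD1, SRM, SMS, OAZ1, OAZ2, AZIN1, SAT1, SMOX, or PAOX, out of 62703 genes. The choice was made with earlier results of these data known. Each name matched 1 row. The cells received 2.55 µM arsenic as sodium metaarsenite, 2.3 µM cadmium as its chloride, or 20 µM mercury as its chloride, or were left non-treated, and were lysed after 1.5, 3, 6, 12, or 24 h. This gave 20 groups of 3 libraries, 60 in all, made from total RNA by 3′ mRNA sequencing, in which each transcript is read from its 3′ end. The doses had been set by the study to kill the same share of cells over a longer exposure. In bulk RNA of this kind, fewer cells that carry a transcript and less of it per cell cannot be told apart. All groups come from 1 cell line. The series describes the 3 libraries of a group as technical, so the p values cover the spread between these libraries only.

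Polyamines are small positively charged molecules that bind RNA and DNA and that growing cells need. ODC1, ornithine decarboxylase, makes putrescine from ornithine and is the first step of the pathway. AMD1 supplies decarboxylated S-adenosylmethionine, from which SRM makes spermidine and SMS makes spermine. Antizymes, encoded by OAZ1 and OAZ2, bind ODC1 and send it to the proteasome, and AZIN1, a relative of ODC1 without its activity, binds antizyme in its place. SAT1 acetylates spermidine and spermine and is the step at which polyamine breakdown is mainly set. PAOX oxidizes the acetylated forms, whereas SMOX oxidizes spermine directly. Both oxidases release hydrogen peroxide. SAT1 and SMOX are known as genes that respond to many kinds of stress.

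Antizyme genes are read through a shift of the reading frame, and this site is shown because it is the feature that OAZ1 and OAZ2 share although their transcripts moved differently here. In the annotation, 1 base of the coding sequence is skipped in both genes. In GRCh38, the window below spans chr19:2271413-2271475 on the plus strand for OAZ1, with base 2271443 skipped, and chr15:64691483-64691545 on the minus strand for OAZ2, with base 64691515 skipped. Both windows lie wholly within coding exons. The capitals mark the stop codon that the shift steps over, whose first base is the skipped one.
OAZ1: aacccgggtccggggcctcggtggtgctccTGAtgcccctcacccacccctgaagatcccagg
OAZ2: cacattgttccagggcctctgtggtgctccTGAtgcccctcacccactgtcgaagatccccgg
Of the 63 bases, 51 (81%) are the same in both genes.

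The 250 bases before the start are shown for the 4 genes with such a sequence that passed the test after 24 h of mercury, SAT1 and OAZ1 upward and SRM and SMS downward. They are RefSeq sequences of GRCh38.p14, which held 7 of the 10 genes. They lie at chrX:23782923-23783172 on the plus strand for SAT1, chr19:2269236-2269485 on the plus strand for OAZ1, chr1:11060019-11060268 on the minus strand for SRM, and chrX:21940459-21940708 on the plus strand for SMS. Capitals mark matches on either strand. The patterns were a loose antioxidant response element TGANNNNGC, the amino acid response element TGATGNAA, and the heat shock element GAANNTTC. The metal response element cores TGCGCNC and TGCACNC and the E-box CACGTG were also marked.
SAT1: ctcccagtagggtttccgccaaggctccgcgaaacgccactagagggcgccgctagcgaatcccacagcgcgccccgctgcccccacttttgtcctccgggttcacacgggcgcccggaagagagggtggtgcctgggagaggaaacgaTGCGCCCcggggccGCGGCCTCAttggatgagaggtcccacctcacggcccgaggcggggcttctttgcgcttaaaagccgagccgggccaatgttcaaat
OAZ1: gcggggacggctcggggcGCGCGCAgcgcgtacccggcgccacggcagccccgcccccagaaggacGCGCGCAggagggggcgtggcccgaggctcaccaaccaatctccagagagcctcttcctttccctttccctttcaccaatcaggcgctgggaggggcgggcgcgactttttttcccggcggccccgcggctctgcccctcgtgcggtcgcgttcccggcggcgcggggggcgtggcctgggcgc
SRM: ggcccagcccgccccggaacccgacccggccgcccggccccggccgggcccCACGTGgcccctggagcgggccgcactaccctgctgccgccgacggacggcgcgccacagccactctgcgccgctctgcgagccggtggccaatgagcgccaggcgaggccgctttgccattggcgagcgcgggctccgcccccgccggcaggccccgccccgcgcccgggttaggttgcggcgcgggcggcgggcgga
SMS: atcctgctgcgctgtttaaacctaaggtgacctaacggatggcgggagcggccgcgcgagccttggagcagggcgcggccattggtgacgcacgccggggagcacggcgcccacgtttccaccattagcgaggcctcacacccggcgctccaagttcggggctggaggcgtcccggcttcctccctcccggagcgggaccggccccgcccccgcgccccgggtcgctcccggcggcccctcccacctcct
The SAT1 window held TGCGCCC, a match to a metal response element core, beginning 101 bases before the start. On the opposite strand, 87 bases before the start, it held TGAGGCCGC, which matches only the loose pattern TGANNNNGC. Whether either match is a working element was not tested. The OAZ1 window held 2 cores TGCGCNC, both on the opposite strand, and the SRM window held an E-box 199 bases before the start. None of these letters occurred in the SMS window. Of 35116 promoters of the same length, 16.8% held TGCGCNC, 9.87% TGCACNC, 35.2% TGANNNNGC, 3.14% TGATGNAA, 5.78% GAANNTTC, and 6.34% CACGTG, and matches to different motifs may overlap.

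Between 2215276 and 4404609 reads per library were assigned to genes, and 12341 genes, 9 of the 10 among them, had enough counts to be tested. Over the 60 libraries, the lowest and highest counts were 81 and 488 for SAT1, 6 and 73 for SMOX, 136 and 388 for OAZ2, and 127 and 408 for AZIN1, and at least 456 for ODC1, AMD1, SRM, SMS, and OAZ1. Levels are given below as CPM (counts scaled to a common, TMM-normalized library size), and changes as the log2 fold change (LFC) with its standard error. None of the 9 tested genes shared 50-base stretches of its last 400 exonic bases with another annotated gene or overlapped one on the same strand there. The cells had 3014 to 5782 CPM of VIM, 223 to 499 of CD44, and 29.7 to 123 of SOX9, whereas the defining astrocyte markers AQP4 and ALDH1L1 had 0 counts and GFAP and S100B had 6 and 1 counts in all 60 libraries together. The summed markers of oligodendrocytes, microglia and blood, and endothelium stayed at or below 1.15, 3.47, and 0.866 CPM in every library. Those of neurons ranged from 6.58 to 16.2 CPM in non-treated cells, 7.75 to 25.6 with arsenic, 7.87 to 17.3 with cadmium, and 11.1 to 24.2 with mercury, mostly as SYT1, and their part in the results was not tested. Mitochondrial transcripts made up 5.16% to 7.94% of the counts in non-treated libraries. They were lowest in replicate 2 of arsenic at 3 h (1.91%) and in replicate 1 of cadmium at 6 h (1.35%). In neither group did any of the 9 genes pass the test with or without that library.

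At an adjusted p under 0.05 (edgeR's quasi-likelihood test, adjusted by Benjamini-Hochberg over all tested genes), the 9 genes gave 25 calls in the 15 comparisons of a metal with non-treated cells of the same time. Mercury gave 16 of them (13 higher, 3 lower), arsenic 5 (4 higher, 1 lower), and cadmium 4, all higher. With mercury, SAT1 alone was higher at 1.5 h and 3 h, where 0.478% and 1.39% of all tested genes were higher. Then 3 of the 9 were higher at 6 h, 4 at 12 h, and 4 at 24 h, against 4.49%, 8.89%, and 13.9% of all tested genes. The lower calls with mercury were 1 at 12 h and 2 at 24 h, and 0 at 1.5, 3, and 6 h, where 7.16%, 13.9%, 0.0891%, 0.154%, and 2.99% of all genes were lower. With arsenic, 4 of the 9 were higher at 24 h (all tested genes, 6.54%) and 1 lower at 12 h (1.74%). With cadmium, 3 were higher at 12 h (5.19%) and 1 at 24 h (1.56%).

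In the other groups, 0 of the 9 genes passed. For higher genes, the share over all tested genes was 0.0648%, 0.122%, 0.608%, and 2.37% with arsenic at 1.5, 3, 6, and 12 h, and 0%, 0.203%, and 1.6% with cadmium at 1.5, 3, and 6 h. For lower genes, it was 0.0081%, 0.0162%, 0.308%, and 7.75% with arsenic at 1.5, 3, 6, and 24 h, and 0%, 0%, 0.446%, 2.99%, and 0.632% with cadmium at the 5 times in order. At an unadjusted p under 0.05, the groups with 0 calls held 2 of the 9 genes with arsenic at 1.5 h and 2 at 3 h, 1 at 6 h, and with cadmium 1 at 1.5 h, 0 at 3 h, and 2 at 6 h. The Wald test of DESeq2 called 1 of the 9 with arsenic at 3 h and 0 in the other 5. Over all genes with cadmium at 1.5 h, edgeR called 0, with 991 at an unadjusted p under 0.05, and DESeq2 called 4. Of all 135 tests of the 9 genes, 10 passed with an LFC above 1, by SAT1, SMOX, or AZIN1, against 0.957% of the tests over all genes. Because the genes were chosen with earlier results known and are counted repeatedly over metals and times, these shares are a description only. The median LFC of the 9 genes lay between -0.15 (12 h of mercury) and 0.09 (6 h of mercury) over the 15 comparisons, and that of all genes between -0.02 and 0.01. Calls thus came from some genes of the pathway, and the median of the 9 stayed near 0.

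**Figure D1:**
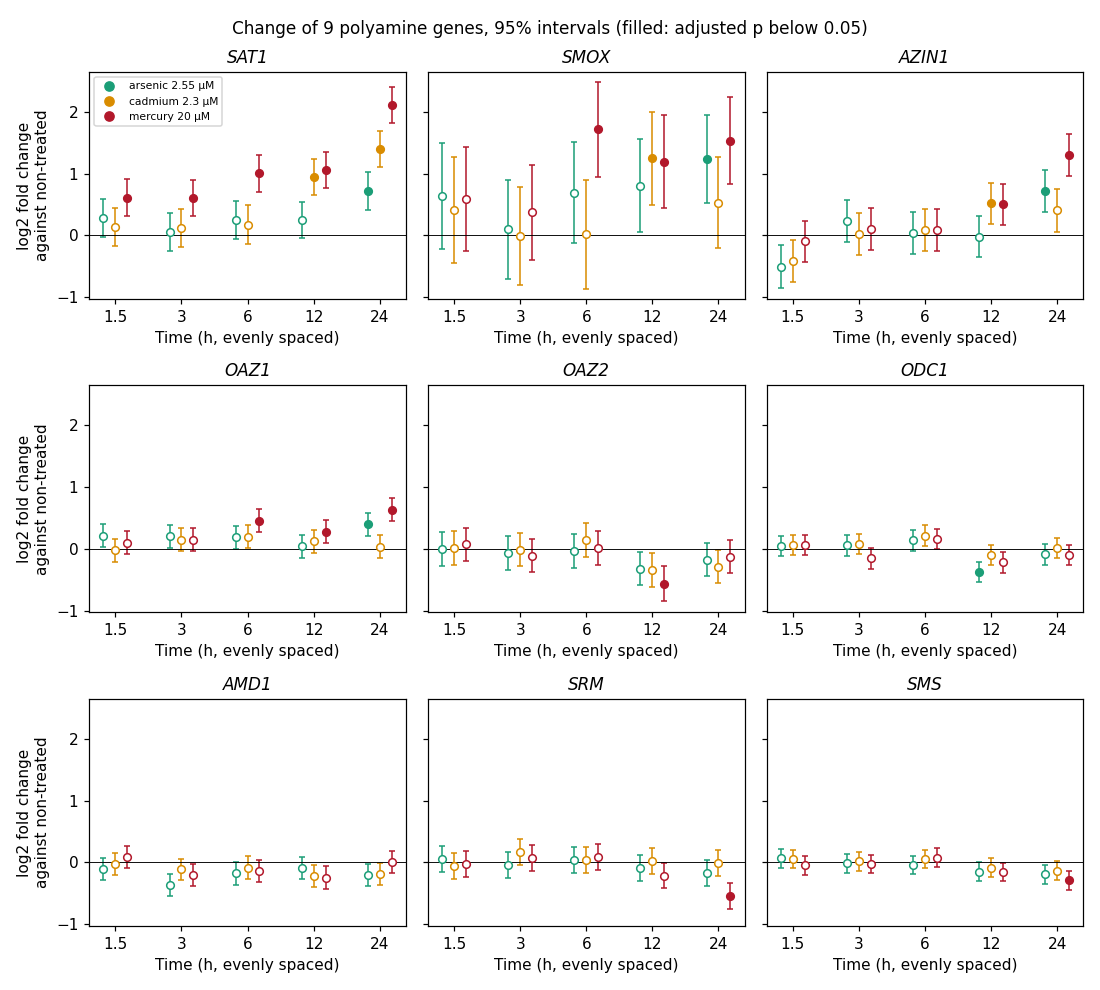
LFC of the 9 tested genes against non-treated cells of the same time (vertical axis, log2) over time in hours, evenly spaced, with 95% intervals and filled points for an adjusted p under 0.05. SAT1 is filled for mercury at all 5 times, whereas AMD1 has no filled point.

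SAT1, on chromosome X of GRCh38 from 23783173 to 23786210, was the gene with the most calls. After 24 h of mercury, its 3 libraries had 154, 132, and 153 CPM, whereas the non-treated libraries of that time had 34.5, 28.3, and 38.7. The groups lay far apart, with a fitted fold of 4.30 (LFC 2.11, standard error 0.15, adjusted p = 3.25e-19). The increase began early. At 1.5 h, the mercury libraries had 61.8, 73.3, and 68.3 CPM against 36.3, 52.0, and 45.0 (LFC 0.61, standard error 0.15, adjusted p = 0.024), and at 3 h they had 65.2, 63.3, and 81.2 against 41.7, 56.6, and 39.0 (LFC 0.61, standard error 0.15, adjusted p = 0.0105). At 6 h, values of 77.1, 91.8, and 78.6 CPM stood against 33.1, 44.2, and 44.9 (LFC 1.01, adjusted p = 6.73e-07), and at 12 h values of 94.1, 115, and 92.2 stood against 46.1, 54.0, and 45.3 (LFC 1.06, adjusted p = 3.9e-08). All 15 mercury libraries lay above the highest of the 15 non-treated libraries of any time, which had 56.6 CPM. Non-treated cells were lowest at 24 h, and against the mean of all 5 non-treated times a comparison added after the data were seen, the mercury LFC at 24 h was 1.78 (adjusted p = 1.28e-24).

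The 2 early SAT1 calls with mercury depended on single libraries. At 1.5 h, the LFC was 0.56 (adjusted p = 0.174) without mercury replicate 2, 0.61 (adjusted p = 0.103) without mercury replicate 3, 0.48 (adjusted p = 0.447) without non-treated replicate 1, and 0.63 (adjusted p = 0.111) without non-treated replicate 3. At 3 h, it was 0.49 (adjusted p = 0.191) without mercury replicate 3, 0.54 (adjusted p = 0.145) without non-treated replicate 1, and 0.50 (adjusted p = 0.175) without non-treated replicate 3. From 6 h on, leaving out any 1 of the 6 libraries kept the SAT1 call with mercury, with an LFC of 0.90 to 1.09 at 6 h, 0.95 to 1.15 at 12 h, and 2.00 to 2.22 at 24 h.

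With cadmium, SAT1 stayed near the non-treated level through 6 h and then was higher. At 3 h, the cadmium libraries had 51.6, 48.6, and 48.7 CPM, within the range of the non-treated ones. At 12 h, they had 86.2, 94.8, and 98.3 (LFC 0.95, standard error 0.15, adjusted p = 1.53e-06), and at 24 h they had 85.2, 107, and 75.8 (LFC 1.40, standard error 0.15, adjusted p = 6.17e-11). The levels of the cadmium groups at 12 h and 24 h overlapped (93.1 ± 6.24 and 89.3 ± 15.9 CPM, SD, n = 3), and the non-treated level was lower at 24 h (33.8 ± 5.23) than at 12 h (48.5 ± 4.82). With arsenic, SAT1 passed only at 24 h, with 49.8, 59.0, and 58.6 CPM (LFC 0.72, standard error 0.15, adjusted p = 0.000389). One of these 3 libraries lay within the range of the 15 non-treated libraries, and against the mean of all non-treated times the LFC was 0.40 (adjusted p = 0.007). For the 4 earlier arsenic times, the LFC was 0.05 to 0.28, with the smallest adjusted p at 0.446. Each of these 3 calls was kept without any 1 of its 6 libraries.

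Ordered by level, the SAT1 groups began with mercury at 24 h (146 ± 12.4 CPM, SD, n = 3), whose libraries did not overlap those of any other group. It was followed by mercury at 12 h (101 ± 12.8), cadmium at 12 h and 24 h, and mercury at 6 h (82.5 ± 8.09), 3 h (69.9 ± 9.79), and 1.5 h (67.8 ± 5.78), each overlapping the next. The 3 arsenic groups at 12, 24, and 1.5 h came after these (57.3 ± 7.21, 55.8 ± 5.19, and 53.8 ± 6.67). The lowest group was non-treated cells at 24 h (33.8 ± 5.23 CPM).

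**Figure D2:**
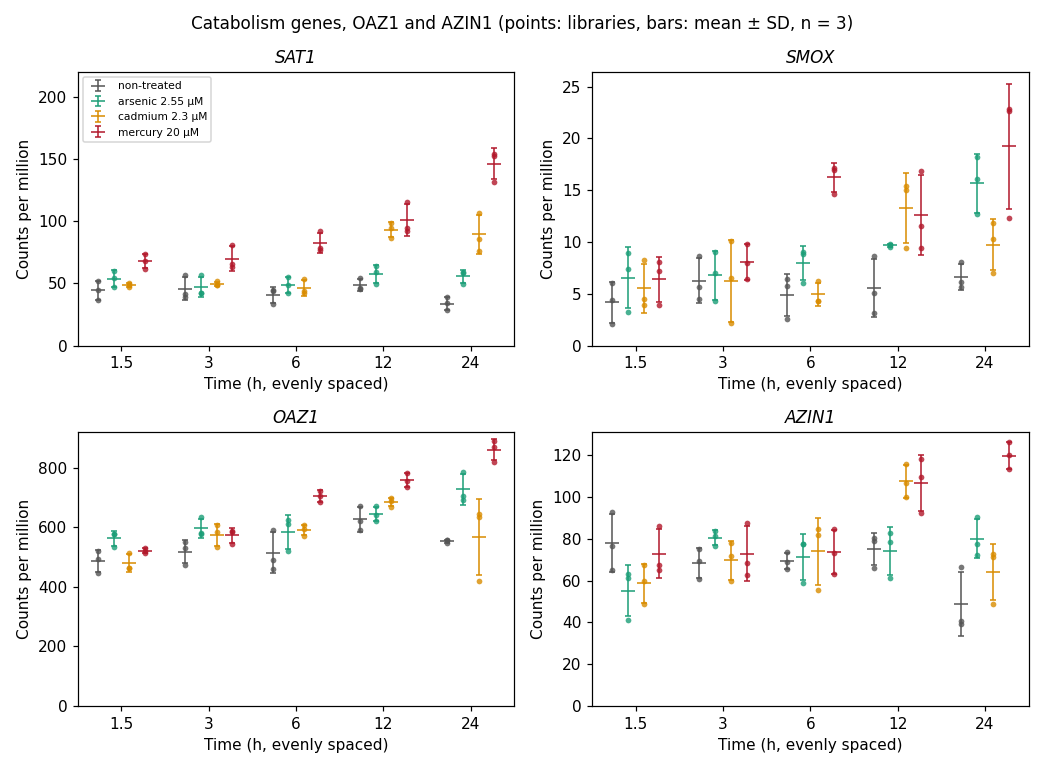
CPM of SAT1, SMOX, OAZ1, and AZIN1 (vertical axes, from 0) by time in hours, evenly spaced, with 1 point per library and bars for the mean ± SD of 3 libraries. In SAT1, the mercury libraries at 24 h have 132 to 154 CPM, above all others, and in AZIN1 the non-treated group has its lowest mean at 24 h (48.8 CPM).

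The metals were compared with each other at each time to ask whether the genes respond alike. These contrasts left out the non-treated groups but came from the same fit of all 60 libraries. Between arsenic and mercury, SAT1 was lower with arsenic at 3, 6, 12, and 24 h, with an LFC of -0.56, -0.76, -0.81, and -1.38 (adjusted p = 0.0281, 0.000218, 3.37e-05, and 5.92e-12). Between cadmium and mercury, it was lower with cadmium at 6 h (LFC -0.83, adjusted p = 7.05e-05) and at 24 h (LFC -0.71, adjusted p = 5.72e-05). At 12 h, the cadmium and mercury groups did not pass, with libraries that overlapped. Between arsenic and cadmium, it was lower with arsenic at 12 h (LFC -0.70, adjusted p = 0.000515) and 24 h (LFC -0.68, adjusted p = 0.000433). The difference between arsenic and mercury at 3 h was not significant without arsenic replicate 2 (LFC -0.49, adjusted p = 0.16), arsenic replicate 3 (LFC -0.48, adjusted p = 0.209), or mercury replicate 3 (LFC -0.44, adjusted p = 0.252), nor in a fit of only the 6 libraries compared. The other 7 SAT1 differences were kept without each library. At matched times, the doses of the metals differed.

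Over these 15 comparisons between metals, the 9 genes gave 19 calls, 8 of them from SAT1. From 1.5 to 24 h, the calls were 0, 0, 0, 3, and 2 of the 9 between arsenic and cadmium, where 0%, 0.138%, 1.18%, 5.77%, and 10.2% of all tested genes were called in either direction. They were 0, 1, 1, 2, and 3 between arsenic and mercury, against 1.56%, 1.89%, 4.48%, 6.84%, and 11.4%, and 0, 0, 2, 0, and 5 between cadmium and mercury, against 0.656%, 1.78%, 3.78%, 3.29%, and 20%. In the 7 comparisons with 0 calls, 1, 2, 0, 3, 1, 2, and 1 of the 9 genes, in the same order, had an unadjusted p under 0.05, and DESeq2 called 1 of them, SAT1 between cadmium and mercury at 3 h. Over all genes between arsenic and cadmium at 1.5 h, edgeR called 0, with 835 at an unadjusted p under 0.05, and DESeq2 called 7. The 5 genes that differed between cadmium and mercury at 24 h were SAT1, SMOX, OAZ1, AZIN1, and SRM.

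SMOX, the spermine oxidase on chromosome 20 of GRCh38 from 4120980 to 4187747, was the second catabolic gene to change. Its counts were low, so its intervals were wide. After 6 h of mercury, its libraries had 14.6, 17.1, and 16.9 CPM against 5.71, 2.56, and 6.42 in non-treated cells (LFC 1.72, standard error 0.38, adjusted p = 0.00115), a 3.28-fold difference between groups that did not overlap. At 12 h of mercury, it had 9.41, 16.8, and 11.5 CPM against 5.03, 8.65, and 3.14 (LFC 1.19, adjusted p = 0.0197), and at 24 h it had 12.3, 22.6, and 22.8 against 5.67, 6.15, and 8.08 (LFC 1.53, standard error 0.35, adjusted p = 0.00053). With arsenic, SMOX was higher at 24 h, with 16.1, 18.2, and 12.7 CPM (LFC 1.24, standard error 0.36, adjusted p = 0.0115), and with cadmium at 12 h, with 14.97, 9.42, and 15.5 CPM (LFC 1.25, standard error 0.38, adjusted p = 0.0256). In these 5 groups, all libraries lay above the highest non-treated library of any time, at 8.68 CPM. The same held for arsenic at 12 h (9.53 to 9.78 CPM), where SMOX did not pass. With cadmium at 24 h, the 95% interval of the LFC ran from -0.21 to 1.27 around 0.53, so a rise like that with arsenic was not distinguished from none.

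The SMOX calls with mercury at 6 h and 24 h were kept without each library. The others were not. With mercury at 12 h, the LFC was 0.93 (adjusted p = 0.161) without mercury replicate 2, 1.14 (adjusted p = 0.0785) without non-treated replicate 1, and 0.90 (adjusted p = 0.148) without non-treated replicate 3. With cadmium at 12 h, it was 1.15 (adjusted p = 0.0784) and 1.11 (adjusted p = 0.128) without cadmium replicates 1 and 3, and 1.19 (adjusted p = 0.103) and 0.95 (adjusted p = 0.168) without non-treated replicates 1 and 3. With arsenic at 24 h, it was 1.11 (adjusted p = 0.0622) without arsenic replicate 2 and 1.13 (adjusted p = 0.0659) without non-treated replicate 1. Compared directly, SMOX was lower with cadmium than with mercury at 6 h (LFC -1.69, adjusted p = 0.00272) and at 24 h (95% interval of the LFC -1.68 to -0.32, adjusted p = 0.0278). The 24 h difference was not significant without cadmium replicate 1 (LFC -0.80, adjusted p = 0.146) or mercury replicates 2 (LFC -0.88, adjusted p = 0.115) or 3 (LFC -0.86, adjusted p = 0.11).

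PAOX, the oxidase of acetylated polyamines on chromosome 10 of GRCh38 from 133379261 to 133391694, had too few counts to be tested. It had 0 to 7 counts per library, 137 in all, with 0 in 13 of the 60 libraries. Summed over 15 libraries each, it had 0.843 CPM in non-treated cells (95% exact Poisson interval 0.602 to 1.15), 0.666 with arsenic (0.459 to 0.936), 0.53 with cadmium (0.346 to 0.776), and 0.74 with mercury (0.523 to 1.02). These intervals overlap, and they cover counting error only. Of the 50-base stretches in its last 400 bases, 42.5% also occur in an annotated gene that overlaps it on the same strand, where reads fall on both genes and are not counted, so that its level may be understated. Tested without a filter on low counts, PAOX passed in 0 of the 15 comparisons in edgeR, also at an unadjusted p, the smallest of which was 0.147.

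Among the regulators of ODC1, OAZ1 and AZIN1 were called higher only at 6 h or later, although the antizyme and the antizyme inhibitor act in opposite directions on ODC1. Some earlier arsenic groups did not overlap non-treated cells of the same time but did not pass. AZIN1 lay lower at 1.5 h (41.0 to 63.2 against 65.3 to 92.8 CPM) and higher at 3 h (76.6 to 83.6 against 60.7 to 75.1). OAZ1 lay higher at 1.5 h (532 to 579 against 446 to 519) and 3 h (576 to 633 against 474 to 550). OAZ1, on chromosome 19 of GRCh38 from 2269509 to 2273490, had 871, 889, and 820.1 CPM after 24 h of mercury against 548, 555, and 555 in non-treated cells, a 1.56-fold difference (LFC 0.64, standard error 0.09, adjusted p = 9.38e-08). It was also higher with mercury at 6 h, with 723, 685, and 706 CPM against 461, 591, and 488 (LFC 0.46, adjusted p = 0.000331), and at 12 h, with 736, 783, and 757 CPM against 589.8, 671, and 619 (LFC 0.28, adjusted p = 0.0296). With arsenic it was higher at 24 h, with 693, 787, and 703 CPM (LFC 0.40, standard error 0.09, adjusted p = 0.00131). All libraries of these 4 groups lay above the highest of the 15 non-treated libraries (671 CPM). The call at 12 h was lost without mercury replicate 2 (LFC 0.26, adjusted p = 0.106) or 3 (LFC 0.28, adjusted p = 0.0661) and without non-treated replicate 1 (LFC 0.24, adjusted p = 0.141) or 3 (LFC 0.27, adjusted p = 0.0803).

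With cadmium, OAZ1 did not pass at any time. At 12 h, the cadmium libraries had 669 to 697 CPM, and 2 of them lay above the highest non-treated library of any time (671 CPM). That library was itself from 12 h, so the groups of that time overlapped. At 24 h, its libraries had 635, 644, and 420.4 CPM, and the third of these was also the library least like its replicates across genes, with a mean correlation of 0.959. Without it, the OAZ1 LFC with cadmium was 0.22 (adjusted p = 0.232) in place of 0.04. OAZ1 was lower with cadmium than with mercury at 24 h (LFC -0.60, adjusted p = 8.94e-07), and this held without that library (LFC -0.43, adjusted p = 0.000231). The difference between arsenic and cadmium at 24 h (LFC 0.36, adjusted p = 0.00549) was lost without it (LFC 0.18, adjusted p = 0.24) and without arsenic replicate 2 (LFC 0.30, adjusted p = 0.0647), as well as in a fit of only the 6 libraries compared (adjusted p = 0.149). In non-treated cells, OAZ1 was itself higher at 12 h than at 1.5 h (LFC 0.37, adjusted p = 0.0127).

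AZIN1, on chromosome 8 of GRCh38 from 102826111 to 102893864, had 113, 126, and 119.9 CPM after 24 h of mercury against 40.7, 39.0, and 66.7 in non-treated cells, a 2.46-fold difference (LFC 1.30, standard error 0.17, adjusted p = 4.57e-09). Non-treated cells had their lowest AZIN1 level at 24 h, lower than at 1.5 h (LFC -0.68, adjusted p = 0.0145). Yet the 3 mercury libraries also lay above the highest of all 15 non-treated libraries (92.8 CPM), and against the mean of all non-treated times the LFC was 0.84 (adjusted p = 4.32e-08). With arsenic at 24 h, AZIN1 had 72.3, 90.6, and 77.5 CPM (LFC 0.72, standard error 0.17, adjusted p = 0.00176). These libraries lay within the range of the 15 non-treated ones, and against the mean of all non-treated times the LFC was 0.26 (adjusted p = 0.153). With cadmium at 24 h, the LFC was 0.41 (adjusted p = 0.274), and 0.71 (adjusted p = 0.0234) without non-treated replicate 3, which had the 66.7 CPM.

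At 12 h, AZIN1 had 99.8, 116, and 107 CPM with cadmium (LFC 0.52, adjusted p = 0.0357) and 118, 109.8, and 92.2 with mercury (LFC 0.50, adjusted p = 0.0258), against 66.3, 79.1, and 80.4 in non-treated cells. With cadmium, the call was lost without cadmium replicate 2 (LFC 0.46, adjusted p = 0.158) or 3 (LFC 0.52, adjusted p = 0.0914) and without non-treated replicate 1 (LFC 0.44, adjusted p = 0.197), 2 (LFC 0.56, adjusted p = 0.0527), or 3 (LFC 0.57, adjusted p = 0.0532). With mercury, it was lost without mercury replicate 1 (LFC 0.44, adjusted p = 0.11) or 2 (LFC 0.48, adjusted p = 0.0831) and without non-treated replicate 1 (LFC 0.42, adjusted p = 0.143). Both were lost when library sizes alone were used. Compared directly, AZIN1 was lower with arsenic than with mercury at 24 h (LFC -0.58, adjusted p = 0.0108), which became -0.51 (adjusted p = 0.0731) without arsenic replicate 1, and lower with cadmium than with mercury at 24 h (LFC -0.89, adjusted p = 3.16e-05), which held without each library.

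At 12 h, AZIN1 was also lower with arsenic than with cadmium (LFC -0.54, adjusted p = 0.0364) and mercury (LFC -0.52, adjusted p = 0.0389). The first of these was lost without arsenic replicate 1 (LFC -0.41, adjusted p = 0.266) or cadmium replicate 1 (LFC -0.58, adjusted p = 0.0507), 2 (LFC -0.47, adjusted p = 0.159), or 3 (LFC -0.54, adjusted p = 0.0973). The second was lost without arsenic replicate 1 (LFC -0.40, adjusted p = 0.272) or mercury replicate 1 (LFC -0.46, adjusted p = 0.144) or 2 (LFC -0.50, adjusted p = 0.125).

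OAZ2, the second antizyme gene, on chromosome 15 of GRCh38 from 64687573 to 64703281, was not called higher in any group. It was lower after 12 h of mercury, with 58.1, 45.3, and 58.6 CPM against 91.5, 70.4, and 76.5 (LFC -0.56, standard error 0.14, adjusted p = 0.00239), in groups that did not overlap. Without mercury replicate 2 the LFC was -0.44 (adjusted p = 0.0516). At 24 h of mercury, OAZ2 had 81.8, 78.7, and 76.0 CPM, within the non-treated range. At 12 h, arsenic (67.0, 62.7, and 61.8 CPM) and cadmium (61.7, 66.2, and 59.3 CPM) libraries also lay below the 3 non-treated ones, but did not pass (LFC -0.32, adjusted p = 0.206, and LFC -0.35, adjusted p = 0.111). With library sizes alone, the cadmium difference was called (LFC -0.42, adjusted p = 0.0389). Of the 3 mercury libraries at 12 h, 1 lay below all 15 non-treated libraries, the lowest of which had 53.4 CPM.

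Of the 4 synthesis genes, none was called higher with any metal, and the calls downward were small. SRM, spermidine synthase, on chromosome 1 of GRCh38 from 11054584 to 11060020, had 182, 149, and 151 CPM after 24 h of mercury against 239, 239.8, and 221 in non-treated cells (LFC -0.54, standard error 0.11, adjusted p = 5.41e-05). SMS, spermine synthase, on chromosome X of GRCh38 from 21940709 to 21994837, had 401, 408, and 407 CPM against 474, 485, and 526 (LFC -0.29, standard error 0.08, adjusted p = 0.00233). For both genes, all 3 mercury libraries lay below the lowest of the 15 non-treated libraries (203 CPM for SRM and 451 for SMS), and both calls were kept without each library. SRM was lower with mercury than with cadmium at 24 h (LFC of cadmium against mercury 0.53, adjusted p = 0.000136), which held without each library. It was also lower than with arsenic (LFC 0.37, adjusted p = 0.0135), which was lost without arsenic replicate 1 (LFC 0.27, adjusted p = 0.158) or 2 (LFC 0.34, adjusted p = 0.0687) or mercury replicate 2 (LFC 0.31, adjusted p = 0.103) or 3 (LFC 0.33, adjusted p = 0.067). With arsenic and cadmium, SRM and SMS did not pass at any time.

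ODC1, on chromosome 2 of GRCh38 from 10439968 to 10448327, was lower after 12 h of arsenic, with 438, 427, and 417 CPM against 555, 563, and 549 (LFC -0.38, standard error 0.08, adjusted p = 0.00159). Non-treated cells at 12 h held the highest ODC1 level of the 20 groups (555 ± 6.87 CPM, SD, n = 3), and the arsenic libraries lay within the range of the 15 non-treated libraries, 379 to 563 CPM. Compared directly at 12 h, ODC1 was lower with arsenic than with cadmium (LFC -0.28, adjusted p = 0.0266). That difference was lost without arsenic replicate 1 (LFC -0.30, adjusted p = 0.0652), 2 (LFC -0.29, adjusted p = 0.0807), or 3 (LFC -0.27, adjusted p = 0.0789) and without cadmium replicate 1 (LFC -0.20, adjusted p = 0.243) or 3 (LFC -0.30, adjusted p = 0.0605). It was also lost with no filter on low counts (LFC -0.27, adjusted p = 0.125). In the other 14 comparisons with non-treated cells, the ODC1 LFC ran from -0.22 to 0.21, with 95% intervals between -0.38 and 0.38. The lowest of these was with mercury at 12 h, with 495, 472, and 467 CPM, below all 3 non-treated libraries of that time (adjusted p = 0.0624). It was called by DESeq2 (adjusted p = 0.0424), with a minimum count of 30 (adjusted p = 0.0396), and with library sizes alone (adjusted p = 0.0236). The highest was with cadmium at 6 h, with 478 to 519 CPM against 418 to 432 (LFC 0.21, adjusted p = 0.207). Arsenic libraries at 6 h (450 to 499 CPM) also lay above these non-treated ones (LFC 0.14, adjusted p = 0.639). Against the mean of all non-treated times, ODC1 was called lower at 24 h with each metal, with an LFC of -0.32 for arsenic (adjusted p = 0.000181), -0.21 for cadmium (adjusted p = 0.0383), and -0.33 for mercury (adjusted p = 5.61e-05).

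AMD1, on chromosome 6 of GRCh38 from 110874770 to 110898879, passed in 0 of the 15 comparisons in edgeR, with 6 at an unadjusted p under 0.05 and 2 called by DESeq2. Its LFC ran from -0.37 to 0.08 and was below 0 in 13 of the 15. The lowest was with arsenic at 3 h, with 297, 243, and 237 CPM against 327, 346, and 333 (adjusted p = 0.0611 in edgeR and 0.00587 in DESeq2), and with mercury at 12 h the LFC was -0.25 (adjusted p = 0.0514 in edgeR and 0.0382 in DESeq2). All 3 mercury libraries at 12 h lay below the lowest of the 15 non-treated libraries (252 CPM). In edgeR with a minimum count of 30, both differences were called (adjusted p = 0.0388 and 0.0324). With library sizes alone, AMD1 was called lower at 12 h with mercury (adjusted p = 0.0257) and cadmium (adjusted p = 0.0388). In non-treated cells, AMD1 was lower at 12 h than at 1.5 h (LFC -0.30, adjusted p = 0.0378).

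**Figure D3:**
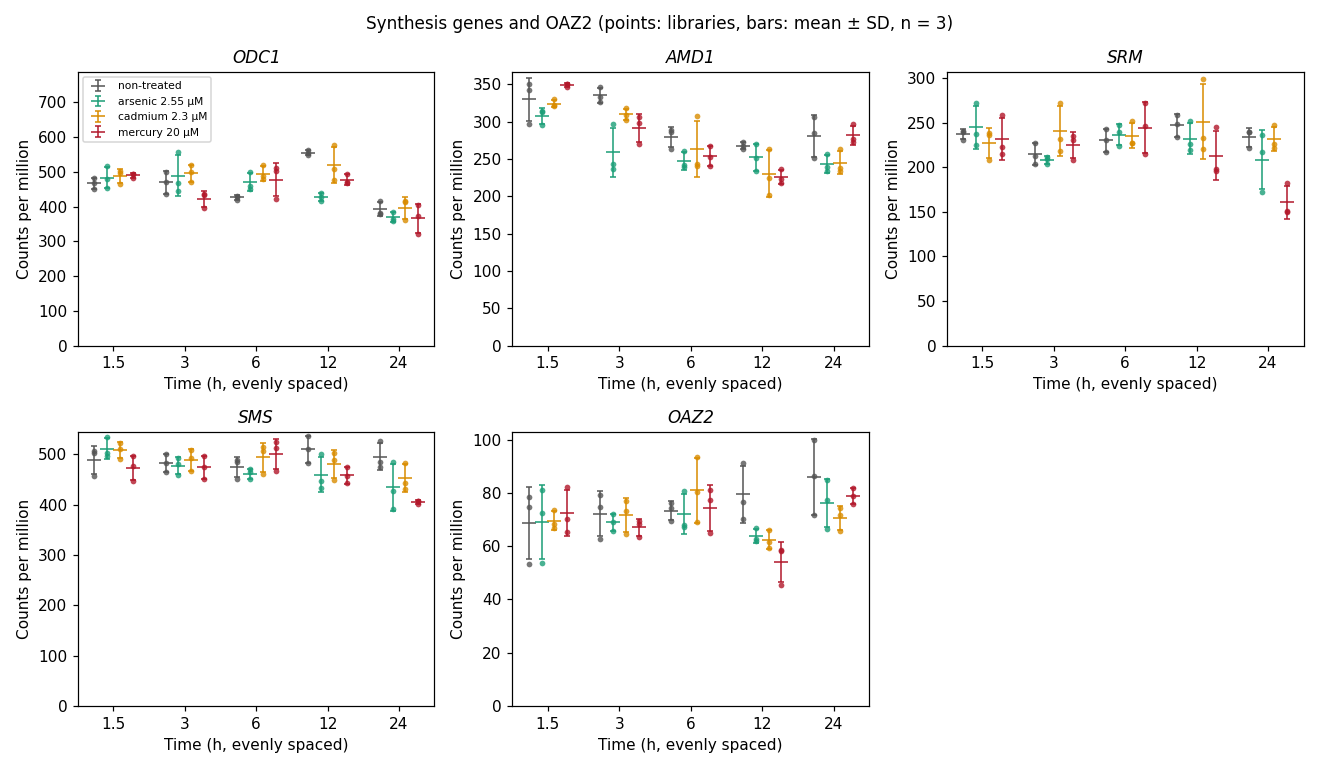
CPM of ODC1, AMD1, SRM, SMS, and OAZ2 (vertical axes, from 0) by time in hours, evenly spaced, with 1 point per library and bars for the mean ± SD of 3 libraries. SRM with 24 h of mercury has 149 to 182 CPM, below the lowest non-treated library of any time at 203 CPM, and ODC1 of non-treated cells is highest at 12 h (555 CPM).

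Whether the effect of a metal changed between times was tested as an interaction, at 12 h against 3 h and at 24 h against 12 h. SAT1 gave 2 of the 3 calls. With cadmium, its effect was larger at 12 h than at 3 h by an LFC of 0.83 (standard error 0.21, adjusted p = 0.0102), where 4.89% of all tested genes were called. Without non-treated replicate 2 of 3 h, this difference was 0.66 (adjusted p = 0.0787). With mercury, it was larger at 24 h than at 12 h by 1.05 (standard error 0.21, adjusted p = 0.00271), where 0.624% were called. With arsenic, the ODC1 effect at 12 h lay below that at 3 h (LFC -0.44, standard error 0.12, adjusted p = 0.0425), where 1.03% were called. That difference was kept only without arsenic replicate 3 or non-treated replicate 1 of 3 h. Without any 1 of the other 10 libraries of the 4 groups, it was -0.45 to -0.33 (adjusted p = 0.0519 to 0.219), and with no filter on low counts it was -0.42 (adjusted p = 0.15). For AZIN1, leaving out non-treated replicate 3 of 24 h added differences between 24 h and 12 h, of 1.04 with arsenic and 1.10 with mercury. Both were also called from all libraries with no filter on low counts, at 0.73 (adjusted p = 0.0262) and 0.81 (adjusted p = 0.0165). In the other 3 tests, of arsenic and of cadmium at 24 h against 12 h and of mercury at 12 h against 3 h, 0 of the 9 genes were called, against 1.57%, 0.381%, and 2.93% of all genes. There, 4, 1, and 2 of the 9 had an unadjusted p under 0.05, and DESeq2 called 0. In non-treated cells, relative to 1.5 h, 0 of the 9 genes were called at 3 h and 0 at 6 h, where 0.122% and 0.486% of all genes were. At 12 h, AMD1 and OAZ1 were called (all genes, 4.09%), and at 24 h AZIN1 (all genes, 3.29%).

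Another 30 genes around the pathway were read in 5 lists, and 22 of them could be tested. With mercury at 24 h, 4 of the 22 were higher and 0 lower, where 13.9% of all tested genes were higher and 13.9% lower. With arsenic at 24 h, 1 was higher and 2 were lower (all genes, 6.54% and 7.75%), and with cadmium at 24 h 1 was higher and 0 lower (all genes, 1.56% and 0.632%). These counts are few and are given as a description. The list of polyamine transport held 5 of these 8 calls, and in it 3 of 5 tested genes were higher with mercury at 24 h and the median LFC of the 5 was 0.92. SLC3A2, the heavy chain of several amino acid transporters, which has also been tied to polyamine export, had 472 to 501 CPM after 24 h of mercury against 128 to 133 in non-treated cells (LFC 1.91, adjusted p = 3.63e-25). With arsenic at 24 h, its LFC was 1.68 (adjusted p = 6.37e-22), and with cadmium 0.69 (adjusted p = 9.5e-07). It passed from 3 h on with mercury (LFC 0.52, adjusted p = 0.000442) and from 6 h on with arsenic and cadmium. ATP13A3, a lysosomal and endosomal polyamine pump, was higher with cadmium at 12 h (LFC 0.82, adjusted p = 0.000564). With mercury, it was higher at 6 h (LFC 0.54, adjusted p = 0.04), 12 h (LFC 0.87, adjusted p = 9.97e-05), and 24 h (LFC 0.92, adjusted p = 2.07e-05). It did not pass with arsenic. Its non-treated level was 99.1 ± 13.8 CPM at 1.5 h and 61.8 ± 19.7 at 24 h (SD, n = 3). Non-treated libraries at 1.5 h reached 108 CPM, and of the called groups only mercury at 12 h (117 to 129 CPM) lay wholly above them. Calls of these other pathway genes were not checked by leaving out libraries.

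SLC12A8, a transporter of the cation-chloride cotransporter family, had 8.59 to 16.1 CPM after 24 h of mercury against 1.44 to 4.30 in non-treated cells (LFC 2.21, standard error 0.56, adjusted p = 0.00157), from 110 and 26 counts in 3 libraries each. EIF5A2, an isoform gene of the translation factor that carries hypusine, a residue made from spermidine, was higher at 12 h with cadmium (LFC 1.27, adjusted p = 0.0416) and mercury (LFC 1.24, adjusted p = 0.0297), from 84 and 87 counts against 45. Its main gene EIF5A was lower with arsenic at 24 h (LFC -0.30, adjusted p = 0.0236). Among suppliers of precursors, OAT, which interconverts ornithine and glutamate semialdehyde, was higher with 24 h of mercury (LFC 0.76, adjusted p = 0.0181). These mercury libraries had 65.4 to 74.6 CPM of OAT, whereas non-treated libraries reached 55.4 at 24 h and 65.9 at 1.5 h. MRI1 of the methionine salvage pathway was lower with 24 h of arsenic (LFC -0.43, adjusted p = 0.00724). Of the list of paralogs (SAT2, SATL1, and OAZ3), SAT2 alone could be tested, and it did not pass in any of the 15 comparisons (LFC 0.50, adjusted p = 0.0692, with mercury at 24 h).

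**Figure D4:**
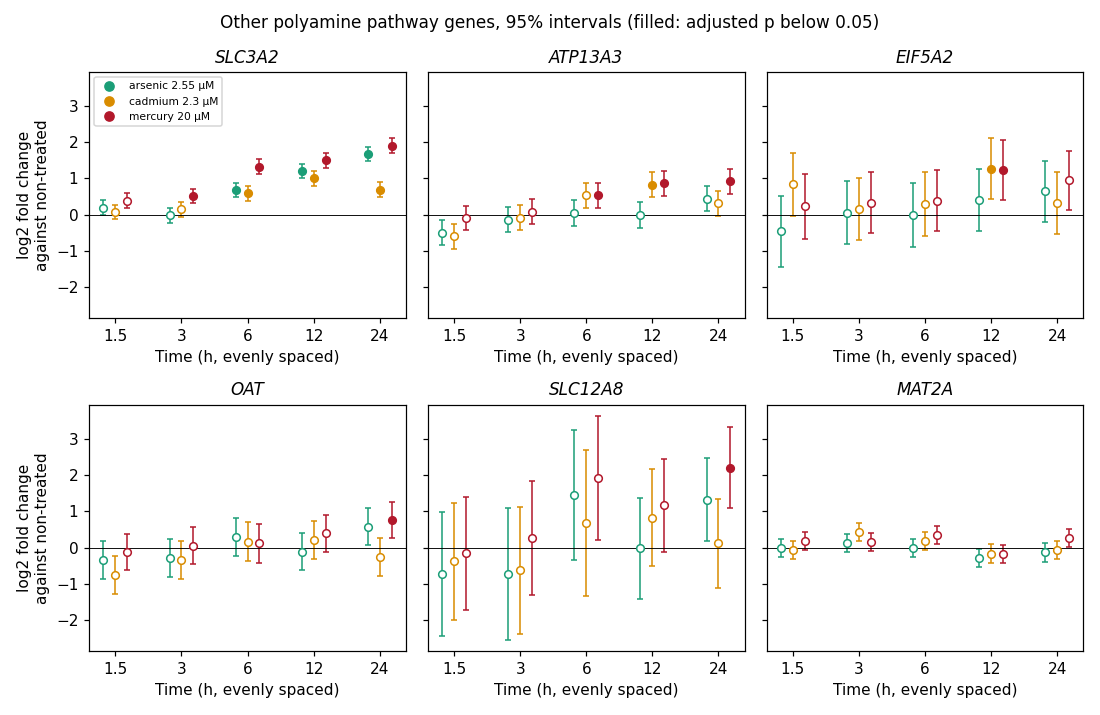
LFC of 6 other genes around polyamines against non-treated cells of the same time (vertical axis, log2) over time in hours, evenly spaced, with 95% intervals and filled points for an adjusted p under 0.05. SLC3A2 reaches 1.91 with mercury at 24 h, and MAT2A has no filled point.

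Genes whose group means moved most like those of a member over the 20 groups were taken from 8379 genes with a mean of at least 10 CPM, by Pearson's correlation of log2 CPM. For SAT1 they were PPP1R15A (0.92), MXD1 (0.92), ZBTB43 (0.91), ADAMTS1 (0.90), and ZFAND2A (0.90). For SMOX they were FAM219A (0.92), TRIB3 (0.91), SERPINH1 (0.91), SLC3A2 (0.91), and CARS1 (0.90). For ODC1 they were MRPL36 (0.88), PAICS (0.87), SNRPG (0.84), ACTG1 (0.84), and MACROH2A1 (0.83). The 20 points share their libraries between genes, and the values describe these groups only.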

How the data were processed

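RNA of 60 libraries of 1321N1 cells was measured by QuantSeq 3′ mRNA sequencing. The authors aligned the reads with STAR 2.7.9a to GRCh38 and deposited whole-number counts per gene, from strand-specific counting of reads that fall on a single gene. The counts had not been normalized. The 92 spike-in rows held 0 counts and were left out.

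In R 4.3.3, genes with a minimum count of 10 by edgeR's group filter (12341 of 62703) were fitted together by edgeR 4.0.16 (quasi-likelihood, TMM factors of 0.934 to 1.03), with 1 coefficient for each of the 20 groups. Contrasts compared each metal with non-treated cells of the same time, metals with each other, metal effects between times, and non-treated cells over time. P values were two-sided and adjusted by Benjamini-Hochberg over all tested genes within a contrast, with calls at 0.05. The alternatives were RLE factors, no factors, no filter, a minimum count of 30, the Wald test of DESeq2 1.42.0, the 6 libraries alone, a replicate block, and leaving out each library. After the data were seen, non-treated cells of all 5 times were added as a reference at 24 h. The edgeR fit and its test, but not the other steps, were checked on simulated counts with known changes.

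All 10 members were named. Other pathway genes were named where called with an LFC above 1 or below -1 (SLC12A8, SLC3A2, EIF5A2), and ATP13A3, OAT, MRI1, EIF5A, SAT2, and MAT2A were added after their values were seen. The members and lists were chosen with earlier results of these data known. Like genes were the 5 with the highest correlation. Of 60 pairs of replicates, none was a duplicate (lowest chi-square per degree of freedom, 2). Replicate numbers were not used as pairs. Depth limits the low genes, SMOX and PAOX above all.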

Additional observations from a re-analysis of the deposited data

Results flagged for a closer look

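For 3 results, the effect of a metal differed between time points by a test of the difference itself. The SAT1 effect of cadmium was 0.83 higher on the log2 scale at 12 h than at 3 h (adjusted p = 0.0102, edgeR), and its effect of mercury was 1.05 higher at 24 h than at 12 h (adjusted p = 0.00271). The SAT1 level of non-treated cells was 48.5 ± 4.82 CPM at 12 h and 33.8 ± 5.23 CPM at 24 h (SD, n = 3), and that of mercury cells was 101 ± 12.8 and 146 ± 12.4 CPM at these times. The ODC1 effect of arsenic was -0.44 at 12 h relative to 3 h (adjusted p = 0.0425), a difference lost with no filter on low counts (adjusted p = 0.15) and without any 1 of 10 of the 12 libraries. Non-treated cells held their highest ODC1 level at 12 h (555 ± 6.87 CPM), and the arsenic cells had 428 ± 10.3 CPM then.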

How the results depend on the processing

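No call changed direction under any alternative. Of 47 calls by the 9 genes, 39 were kept under every alternative other than leaving out a library, 28 without each library in turn, and 27 under both. Under the alternatives other than the reference of all 5 non-treated times, arsenic gave 5 calls against non-treated cells (5 to 6), cadmium 4 (4 to 5), and mercury 16 (16 to 18). Between metals there were 19 (18 to 21), and between times 3 (3 to 4). The replicate block gave 5, 4, 16, 19 between metals, and 3 between times, and it changed no count. For same-numbered treated and non-treated libraries, the correlation of their deviations from the group means exceeded 0.1 in 0 of 45 pairs (median -0.00799, range -0.278 to 0.0837). With 3 libraries a group, this cannot show whether such libraries were handled together. Leaving out each library gave 4 to 7 calls with arsenic, 2 to 5 with cadmium, 12 to 17 with mercury, 16 to 22 between metals, and 1 to 5 between times. The cadmium count was 2 without cadmium replicate 3 or non-treated replicates 1 or 3 of 12 h. The count between times was 5 without non-treated replicate 3 of 24 h and 1 without non-treated replicate 2 of 3 h. The SAT1 LFC after 24 h of mercury was 2.06 to 2.12 under the same alternatives, 2.00 to 2.22 without each library, and 1.78 against all 5 non-treated times. With library sizes alone, the 12 h calls of OAZ1 with mercury and of AZIN1 with cadmium and mercury were lost. Against non-treated cells of all 5 times, AZIN1 with arsenic at 24 h was lost, and lower calls were added for ODC1 with all 3 metals (LFC -0.33 to -0.21), AMD1 with arsenic (LFC -0.29) and cadmium (LFC -0.28), and SMS with arsenic (LFC -0.17). The ODC1 level of non-treated cells was itself lowest at 24 h, and ODC1 did not pass against these same-time cells. With no filter on low counts, both ODC1 differences of arsenic, from cadmium at 12 h and between 12 h and 3 h, were lost. The causes were not tested. Depth limits SMOX, with as few as 6 counts in a library, and PAOX.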

Other observations

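Among the 30 other genes around the pathway, ARG1, MTAP, ATP13A4, and SLC22A3 had 0 counts in all 60 libraries, which allows up to 0.0152 CPM over the 197460470 reads of all libraries together, for counting error only. MTAP, which salvages the methylthioadenosine that SRM and SMS release, was looked at further after this value was seen. Of the 24 coding genes on chromosome 9 from MLLT3 to DMRTA1, the stretch that holds MTAP, 23 had 0 counts, MTAP among them, and the other, KLHL9, had 2. Most of the 24 are interferon genes. The others at 0, besides MTAP, were MLLT3, FOCAD, HACD4, CDKN2A, CDKN2B, and DMRTA1. Of the 64 genes of all types in the stretch, 62 had 0 counts. The nearest genes outside it, SLC24A2 and ELAVL2, were also at 0, so its ends cannot be placed. Farther out, ACER2 had 46 counts, RPS6 695309, DENND4C 2249, PLIN2 82, and HAUS6 14548. The reason for these values was not tested.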
